A study of Homo sapiens with 24 samples.

Results

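SKBR3 is a human breast carcinoma line with an amplified ERBB2 gene, which encodes the receptor tyrosine kinase HER2. The transcriptome described here is that of untreated SKBR3 cells, taken as the 8 control libraries of 24 polyA RNA libraries. No counts of a treated library were used. The study compared 3 groups of 8 libraries, namely untreated cells, cells given the anti-HER2 antibody Herceptin and cells given its biosimilar ApoTras. All cells were kept in DMEM with 10% fetal bovine serum and penicillin/streptomycin, seeded at 6500 cells per cm2 in 6-well plates, given new medium on days 1 and 4, and lysed for RNA on day 7. The control cells received neither antibody, and the labels do not say that they received the saline in which the antibodies were given. The 8 replicates were set up on day 0; no plate, passage or sequencing batch is given, so the spread between libraries may hold technical as well as culture differences. A line grown on plastic lacks the stroma, vessels and immune cells of a tumour, so markers of those cells were read here as a check of the material.

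HER2 is 1 of 4 related receptors, with EGFR (the EGF receptor), HER3 (ERBB3) and HER4 (ERBB4), which pair with each other at the cell surface. HER2 has no known ligand of its own, and HER3 has little kinase activity, so both act mainly through partners. Breast epithelium holds an inner luminal layer, marked by keratins 8, 18 and 19 and the factors FOXA1 and GATA3, and an outer basal layer, marked by keratins 5 and 14 and p63. HER2-amplified tumours of the type from which SKBR3 derives usually lack the estrogen receptor (ESR1) and the progesterone receptor (PGR).

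Levels are given on 2 scales. Counts per 1000000 (CPM) divide a gene's expected count by the library total and show where the sequencing went, while transcripts per 1000000 (TPM) also divide by the effective length of the gene, so that genes can be compared with each other. The labels do not state which library each effective length comes from, and it may be a treated one. The 8 libraries held 9116591 to 10759115 expected counts. A gene was taken as expressed when it reached 1 TPM in all 8 libraries. Values are means over the 8 libraries ± SD unless a range is given, and intervals and floors cover counting error only. A gene with 0 counts in all 8 libraries could still lie at up to 0.0376 CPM, the level of 3 counts in their summed total. RSEM splits reads among similar sequences, and genes whose expected counts were not whole in over 50% of the libraries are marked as sharing reads. Such genes made up 28.2% of expressed genes, and their levels are less certain than the SD shows.

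There were 12103 expressed genes, of which 10878 were nuclear protein-coding genes, 790 long non-coding RNA genes and 350 pseudogenes. The expressed coding genes were 54.6% of the 19909 in the annotation, and 3287 coding genes (16.5%) had no count in any of the 8 libraries. The share of 54.6% is the one to set beside the counts of expressed list and family members given below. The median expressed gene lay at 18.6 TPM. Most expressed genes, 6529, lay between 10 and 100 TPM, and 153 lay at 1000 TPM or more. Levels were concentrated in few genes: the 100 most abundant held 35.7% ± 0.633 of TPM but only 19.8% ± 0.220 of counts. The 10 most abundant held 11.1% ± 0.274 of TPM and 6.21% ± 0.132 of counts. Ribosomal protein genes, whose messages are short, held 22.2% ± 0.768 of TPM and 7.32% ± 0.321 of counts.

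**Figure D1:**
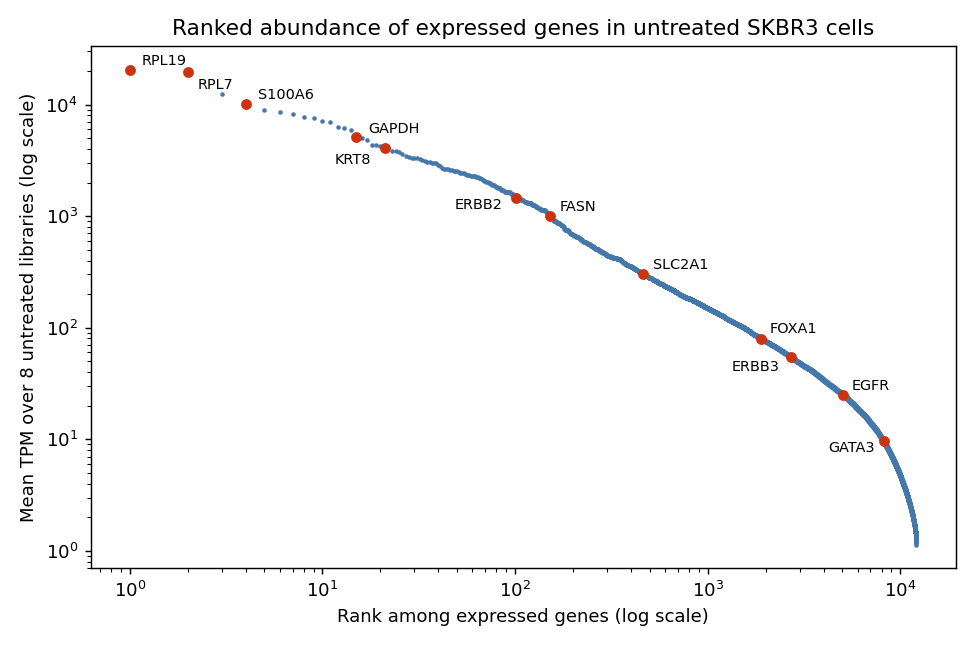
Mean TPM over the 8 untreated libraries (log axis) against rank (log axis) for the genes of at least 1 TPM in every library, 1 point a gene, with named genes in red. RPL19 and RPL7 stand at the head, ERBB2 lies at 1463 TPM, and EGFR at 24.9 TPM lies close to the median expressed gene.

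The most abundant nuclear transcripts encoded ribosomal proteins and the protein synthesis machinery. RPL19, a protein of the large ribosomal subunit encoded on chromosome 17 (39200283 to 39204732 on GRCh38), led with 20555 ± 700.2 TPM. Its 8 values ran from 19471 over a median of 20365 to 21626 TPM. RPL7, another large-subunit protein, followed with 19697 ± 1555 TPM, and the ranges of the pair overlapped. Both stood apart from the rest of the family: RPL19 was 10.3 to 11.6 times and RPL7 9.46 to 11.3 times the median of the 86 expressed ribosomal protein genes in single libraries, whereas RPS27, the next, was 4.35 to 4.85 times that median. Ribosomal protein genes have many processed pseudogene copies, and 55 of the 87 listed shared reads, RPL19, RPL7 and RPS27 among them.

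Next came S100A6, which encodes a small calcium-binding protein, with 10110 ± 436.2 TPM (9696 to 11029) and no shared reads. The order of these short messages depends on the length used: with gene length in place of effective length, the level of S100A6 was 6638 TPM and the level of RPS27 4514 TPM, both below the level of EEF1A1 at 8808 TPM. The other leading nuclear genes were RPS27 at 8652 TPM, RPS24 at 7692 TPM, EEF1A1, which delivers aminoacyl-tRNA to the ribosome, at 7505 TPM, PPIA, which encodes cyclophilin A, at 7071 TPM, RPS18 at 6199 TPM, and GAPDH, a glycolytic enzyme, at 5083 TPM. RPL41, RPS21, RPL39 and RPSA (the laminin receptor and ribosomal protein SA) lay between 4294 and 5025 TPM. KRT8, the type II keratin of simple epithelia, and RPS14 completed the leading 15 with 4094 and 4074 TPM. Of these 15 genes, only S100A6, RPS21 and RPS14 had whole counts in most libraries.

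Counted per library rather than per length, long messages moved up. EEF1A1 led with 9742 ± 508.4 CPM, followed by RPL7 with 8607 CPM, RPL19 with 7989 CPM, and the mitochondrial MT-CO1 with 7046 CPM and MT-RNR2 with 6416 CPM. FASN, the fatty acid synthase, took 5178 ± 212.8 CPM and was 6th by CPM but 152nd by TPM, at 1010 ± 52.7 TPM. ERBB2 took 4182 ± 146.4 CPM and was 8th by CPM and 101st by TPM. KRT8, GAPDH and MT-ND4 were the others of the leading 10, with 5078, 4079 and 3820 CPM.

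Among the 200 genes highest by TPM, the coding genes that fell farthest in rank by CPM were short. They were ATP5ME and ATP5MD (subunits of ATP synthase), S100A8, MT2A (a metallothionein, which binds zinc and copper) and SEC61G (a subunit of the translocon of the endoplasmic reticulum). ATP5ME ranked 199th by TPM and 4472nd by CPM, with an effective length of 97.1 bases. Among the 200 highest by CPM, those that fell farthest by TPM were the giant messages of AHNAK, PRKDC, NUFIP2, RNF213 and MYH9. AHNAK, with an effective length of 15927 bases, ranked 81st by CPM and 1835th by TPM. An effective length of under 100 bases makes a TPM value sensitive to the length assumed: MT-ATP8, with 32.4 bases, stood at 12461 ± 1568 TPM on 308 ± 39.4 CPM.

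Mitochondrially encoded genes held 7.31% ± 0.578 of TPM and 3.27% ± 0.247 of counts, with 2.88% to 3.60% of counts in single libraries. All 13 mitochondrial mRNAs were expressed. MT-CO2 and MT-CO1, subunits of cytochrome c oxidase, lay at 8999 ± 805.4 and 7042 ± 657.4 TPM, and MT-ND1, a subunit of complex I, was lowest at 1407 TPM. The ranges of MT-CO2 and MT-CO1 each overlapped that of MT-ND4L, which lay between them at 8298 TPM. Libraries were made from polyadenylated RNA, so RNAs without a long tail are undercounted, and long non-coding RNAs held 1.39% ± 0.130 of TPM.

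The promoters of abundant and silent genes differed in base composition. RefSeq promoters (GRCh38.p14), 250 bases before to 50 after the start, were read for the genes that the table gives with a single start, which matched 11049 of 19781 coding genes. The ratio of observed to expected CpG, the dinucleotide that is methylated in vertebrate DNA, had a median of 0.265 among the 1886 matched genes with 0 counts, 0.522 among those above 0 and under 1 TPM, 0.812 from 1 to 10 TPM and 0.883 from 10 to 100 TPM. It stayed near that value above, at 0.884 from 100 to 1000 TPM and 0.905 in the 86 genes of 1000 TPM or more. The TATA motif TATAAA, on the gene's strand between 40 and 16 bases before the start, showed another pattern. It was found in 9.86% of genes with 0 counts, in 0.951% of those from 10 to 100 TPM and in 8.14%, or 7 genes, of those at 1000 TPM or more, against 4.21% of all matched genes and 2.83% of all 22114 promoters with a single start. Of 80 matched keratin-associated protein genes, 42.5% held the motif, and 293 matched olfactory receptor genes had a median CpG ratio of 0.123. Both families were largely silent, so they may weigh on the values for genes with 0 counts. Those values without these families were not computed. A pyrimidine run on the gene's strand (CTTTCC, or else the run CTTTTC, or else the run CTCTTT) lay within 10 bases of the start in 34.9% of genes at 1000 TPM or more and in 43.1% of 58 ribosomal protein genes, against 2.81% of all matched genes and 2.62% of all promoters. Ribosomal protein genes are among those at 1000 TPM or more, so the shares of 34.9% and 43.1% count some of the same promoters. The share among the other genes at 1000 TPM or more was not computed. Messages of the translation machinery are known to begin with such a pyrimidine run.

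**Figure D2:**
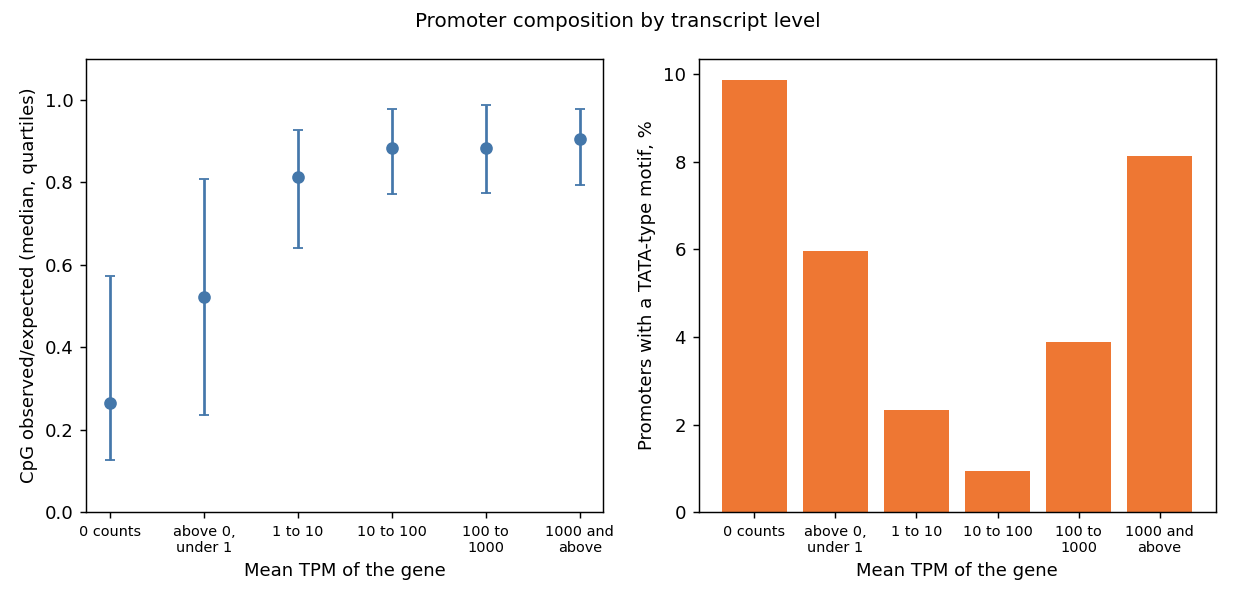
Left, median and quartiles of the observed to expected CpG ratio of promoters by the mean TPM of the gene; right, percent of the same promoters with the TATA motif. The CpG ratio rises from 0.265 in silent genes to 0.883 at 10 to 100 TPM and then levels off, while the share with the motif is highest at both ends, 9.86% and 8.14%.

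The 100 bases before the start are shown for 7 genes that span these levels, with CpG dinucleotides and the motif TATAAA in capitals, 5′ to 3′ on the gene's strand. S100A6 and ERBB2 are abundant with CpG-rich promoters, DHRS2 (a short-chain dehydrogenase at 2435 ± 67.6 TPM) and S100A9 are abundant with TATA promoters, CGA (the alpha chain of gonadotropins, at 31.4 ± 7.12 TPM) was among the most variable between libraries, and CSN2 (beta-casein) and KRTAP1-1 (a hair keratin-associated protein) had 0 counts in all 8 libraries. These genes were chosen after their values were seen.
S100A6, chr1:153535992-153536091, minus strand: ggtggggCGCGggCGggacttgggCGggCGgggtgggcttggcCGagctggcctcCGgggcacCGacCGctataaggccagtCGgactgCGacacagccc
ERBB2, chr17:39687994-39688093, plus strand: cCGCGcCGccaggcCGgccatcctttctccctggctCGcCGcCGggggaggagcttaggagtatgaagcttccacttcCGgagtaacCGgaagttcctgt
DHRS2, chr14:23630015-23630114, plus strand: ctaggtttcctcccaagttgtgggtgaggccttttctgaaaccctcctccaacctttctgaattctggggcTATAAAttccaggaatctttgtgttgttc
S100A9, chr1:153357754-153357853, plus strand: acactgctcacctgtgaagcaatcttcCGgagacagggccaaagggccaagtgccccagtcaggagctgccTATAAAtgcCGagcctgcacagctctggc
CGA, chr6:87095107-87095206, minus strand: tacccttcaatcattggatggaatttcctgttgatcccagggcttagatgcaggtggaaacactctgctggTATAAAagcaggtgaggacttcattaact
CSN2, chr4:69965729-69965828, minus strand: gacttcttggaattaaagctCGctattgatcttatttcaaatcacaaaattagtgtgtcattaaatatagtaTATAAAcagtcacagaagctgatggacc
KRTAP1-1, chr17:41041451-41041550, minus strand: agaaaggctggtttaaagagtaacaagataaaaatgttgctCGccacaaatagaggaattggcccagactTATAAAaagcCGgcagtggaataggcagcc
The upstream stretches of S100A6 and ERBB2 held 11 and 9 CpG and no TATAAA, and those of DHRS2 and CGA held no CpG. The stretch of S100A6 does hold tataag, which differs from the motif in its last base and was not counted, so near matches are missed here. S100A9 had 2 CpG, CSN2 1 and KRTAP1-1 2. The motif stood in the stretches of abundant DHRS2 and S100A9, of CGA and of silent CSN2 and KRTAP1-1.

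ERBB2 was by far the most abundant receptor tyrosine kinase message. Its level was 1463 ± 69.7 TPM, with a lowest value of 1357, a median of 1453 and a highest of 1565 TPM. ERBB2 shares reads and overlaps MIEN1 and PGAP3 on chromosome 17 (39687914 to 39730426). ERBB3 lay at 54.6 ± 3.03 TPM (49.5 to 59.6), EGFR at 24.9 ± 1.35 TPM (22.8 to 27.4) and ERBB4 at 0.0726 ± 0.0376 TPM, about 6 counts a library. The ranges of the 4 receptors did not overlap. Within a library, ERBB2 was 26.8 ± 1.02 times ERBB3 and 58.8 ± 2.05 times EGFR, and ERBB3 was 2.20 ± 0.110 times EGFR.

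The ligands of these receptors were low. Of 11 ligand genes, 5 were expressed: EPGN (epigen) at 8.43 ± 0.931 TPM, EGF at 7.09 ± 0.607 TPM, NRG2 (neuregulin 2) at 6.21 ± 1.20 TPM, BTC (betacellulin) at 2.51 TPM and AREG (amphiregulin) at 1.55 TPM. The ranges of EPGN, EGF and NRG2 overlapped in turn, so their order is not resolved. HBEGF lay at 0.524 TPM, and NRG3 had no count.

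Among 54 other receptor tyrosine kinases, 21 were expressed, against 54.6% of all nuclear coding genes, and 13 reached 10 TPM in every library. DDR1, a collagen receptor of epithelia, led with 189.6 ± 8.64 TPM (179.5 to 202.4), and ERBB2 was 7.71 ± 0.182 times its level. RYK, a WNT co-receptor, followed with 31.4 ± 1.34 TPM, then TYRO3 with 27.8 ± 1.35, EPHB3 with 27.0, CSF1R with 19.1 and MST1R with 18.9 TPM. The ranges of RYK, TYRO3 and EPHB3 overlapped in turn, and so did those of CSF1R and MST1R. The receptors of insulin and of its growth factors were low, INSR at 3.15 ± 0.202 and IGF1R at 4.13 ± 0.448 TPM. INSRR, TIE1, FLT3, ROR2 and EPHA5 had 0 counts in all 8 libraries.

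Among 48 nuclear receptors, which are hormone- or lipid-regulated transcription factors, 25 were expressed, against 54.6% of all nuclear coding genes. NR2F6, an orphan receptor, lay at 95.6 ± 7.33 TPM, ESRRA, the estrogen-related receptor alpha, at 83.6 ± 3.70 TPM, and RARA and RARG, receptors of retinoic acid, at 53.0 ± 3.88 and 44.2 TPM. NR1H2, an oxysterol receptor, and VDR, the vitamin D receptor, followed with 43.4 and 28.5 TPM. NR2F6 and ESRRA overlapped in range, while ESRRA lay above RARA in every library. The estrogen and progesterone receptors lay far below: ESR1 at 0.346 ± 0.101 TPM (0.207 to 0.492) and PGR at 0.00368 TPM. PGR had 0.375 counts a library on average, and its median library had none. ESR1 rested on 15.2 counts a library.

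**Figure D3:**
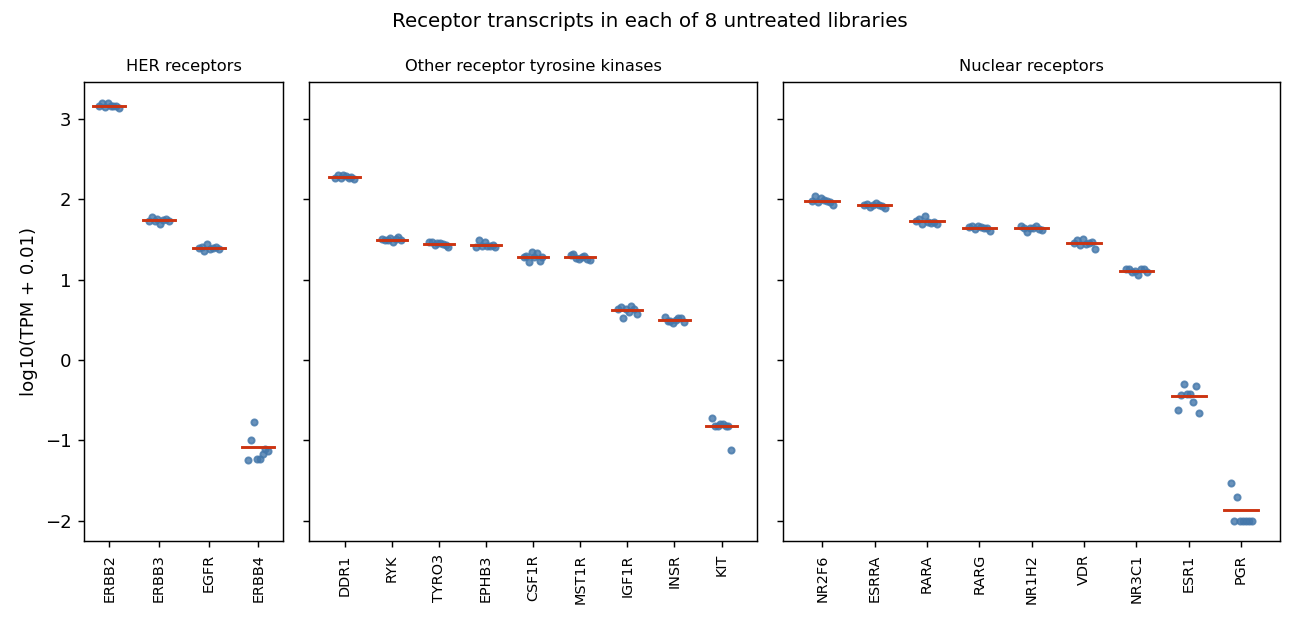
Level of selected HER receptors, other receptor tyrosine kinases and nuclear receptors as log10 of TPM plus 0.01, 1 blue point for each of the 8 untreated libraries and a red line at the mean. ERBB2 at 1463 TPM lies above all others. ESR1 at 0.346 TPM, ERBB4 below it and PGR, at 0.00368 TPM, are among the lowest.

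The lineage profile was luminal. Of 28 luminal epithelial markers, 26 were expressed, against 54.6% of all nuclear coding genes, and 14 reached 100 TPM in every library. The list median, taken over all 28 members, was 97.7 TPM, against 21.3 TPM for all expressed nuclear coding genes. The keratins of simple epithelia led: KRT8 at 4094 ± 211.2 TPM (3858 to 4435), its neighbour in level KRT19 at 3817 ± 189.0 TPM, KRT7 at 2265 ± 121 TPM and KRT18 at 2083 ± 159.8 TPM. KRT8, KRT7 and KRT18 share reads, and KRT8 and KRT18 pair in 1 filament; KRT8 was 1.97 ± 0.178 times KRT18. CD24, a surface glycoprotein, lay at 966 ± 28.8 TPM and ELF3, an epithelial ETS factor, at 564 ± 25.7 TPM. Of the luminal transcription factors, SPDEF stood at 115.7 ± 5.37 TPM and FOXA1 at 79.8 ± 2.79 TPM, but GATA3 stood at only 9.55 ± 0.806 TPM. The blood and endothelial factor GATA2 was higher, at 79.0 ± 5.42 TPM, or 8.31 ± 0.703 times GATA3 within a library.

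CDH1, which encodes E-cadherin, the adhesion molecule of epithelia, was the only luminal marker under 0.1 TPM. It lay at 0.0170 ± 0.0314 TPM, with 2 counts in all 8 libraries together; SKBR3 is known as a line without E-cadherin. The catenins that bind cadherin tails were present all the same. JUP (plakoglobin) stood at 541.5 ± 45.3 TPM, CTNNA1 (alpha-catenin) at 418 (394.7 to 455.3), CTNNB1 (beta-catenin) at 127 and CTNND1 (p120) at 109 TPM. Of the other classical cadherins listed, CDH5 alone was expressed, at 15.1 ± 1.20 TPM, and CDH3 had no count. The tight junction gene CLDN4 lay at 353 ± 16.4 TPM, CLDN7 at 276 and CLDN3 at 55.4 TPM, the highest of 24 claudins, of which 7 were expressed.

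Basal and myoepithelial markers were lower than the luminal ones, with 10 of 23 expressed, against 54.6% of all nuclear coding genes. None reached 100 TPM, and the median over all 23 members was 1.01 TPM. The highest were CAV1 (caveolin) at 16.8 ± 1.23 TPM, ITGB4 (integrin beta 4) at 16.6, KRT17 at 14.8 and CD44 at 10.8 TPM, whose ranges overlapped in turn. KRT5 lay at 1.01 ± 0.168 TPM, KRT14 at 0.262 ± 0.155, TP63 at 0.111 ± 0.0512, and CDH3 had no count. Of 12 genes of the epithelial-mesenchymal transition, FN1 (fibronectin) at 29.9 ± 1.98 TPM and SNAI1 at 2.39 TPM were expressed. VIM, the mesenchymal filament protein vimentin, lay at 0.129 ± 0.137 TPM, and ZEB1, TWIST1, TWIST2 and FOXC2 had no count. Messages of E-cadherin and vimentin were thus both near 0.

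Markers of other cell types summed to little. The 20 leukocyte markers summed to between 35.0 and 41.7 TPM per library, nearly all from CSF1R and CD68 (16.9 TPM, shared reads), while PTPRC (CD45), the defining leukocyte gene, lay at 0.0301 TPM and 10 markers, CD4, LYZ and TYROBP among them, had no count. The 11 endothelial markers summed to between 57.6 and 67.1 TPM, from ENG at 30.8, ESAM at 15.2 and CDH5 at 15.1 TPM, with PECAM1 and TIE1 at 0. The 13 fibroblast markers summed to between 103 and 118 TPM, chiefly FBLN1 (fibulin 1) at 99.7 ± 5.77 TPM, with COL1A1 at 2.33, COL1A2 at 0.0153 and DCN at 0.0143 TPM. None of 5 adipocyte markers and none of 7 milk protein genes was expressed, and CSN1S1, CSN2, CSN3 and LALBA had no count.

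**Figure D4:**
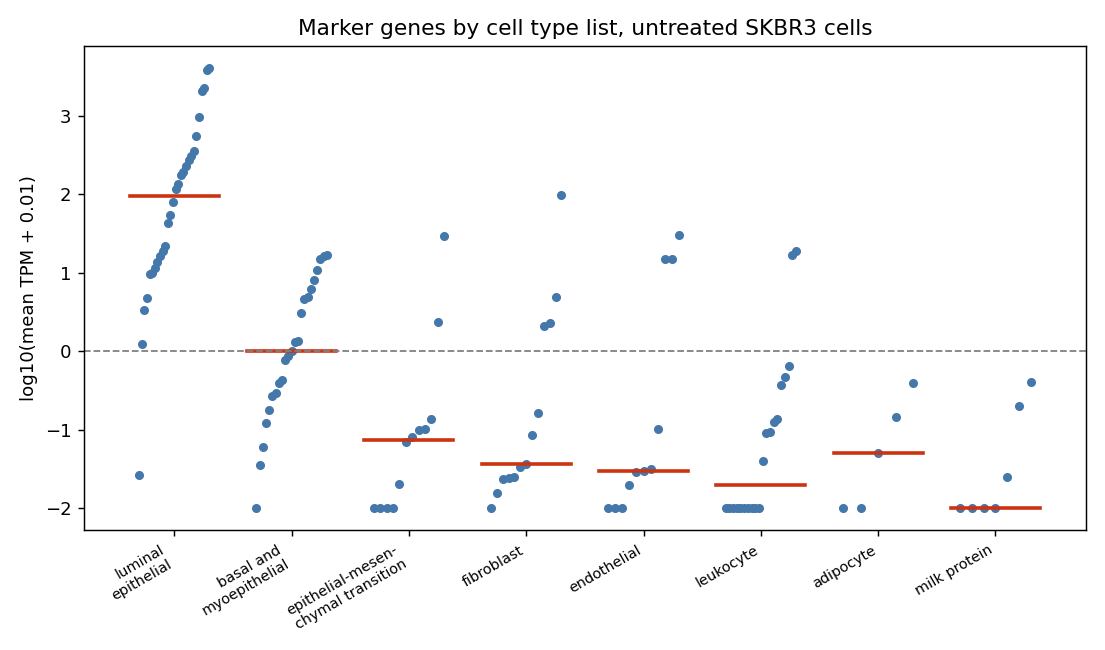
Mean level of each marker gene as log10 of TPM plus 0.01, 1 point a gene, by list, with the list median in red and the 1 TPM level dashed. The luminal list has a median of 97.7 TPM, the basal list 1.01 TPM, and the other lists lie below, with single genes such as FBLN1 at 99.7 TPM standing out.

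Genes around ERBB2 were high as a group. Within 500 kb on either side lay 30 coding genes, ERBB2 and RPL19 included, of which 23 were expressed, with a median of 182 TPM against 21.3 TPM for all expressed coding genes. Of the 23, 13 reached 100 TPM in every library (56.5%), against 12.4% of all expressed coding genes. MIEN1, which overlaps ERBB2 and shares reads, lay at 652 ± 20.9 TPM, PSMD3 (a proteasome subunit) at 620 ± 46.3, GSDMB (a gasdermin) at 596 ± 42.5, STARD3 (a late endosomal sterol carrier) at 491 ± 23.9, CDK12 at 453 ± 21.8 and GRB7 (an adaptor that binds HER2) at 243 ± 11.9 TPM. ERBB2 was 2.24 ± 0.0429 times MIEN1. Tissue-restricted genes between them were nearly silent, NEUROD2 at 0.0225 and ZPBP2 at 0.0337 TPM. Copy number was not measured.

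Glycolysis was carried by the widely expressed isoforms. Of 27 glycolytic genes, 18 were expressed, against 54.6% of all nuclear coding genes, and 11 reached 100 TPM in every library. GAPDH led with 5083 ± 354.3 TPM, and ALDOA (aldolase) at 1906, ENO1 (enolase) at 1891 and LDHA (lactate dehydrogenase A) at 1788 ± 58.5 TPM had overlapping ranges. TPI1 and PKM followed with 971 and 854 TPM. LDHA was 2.81 ± 0.282 times LDHB, and HK1, the housekeeping hexokinase, was 3.53 ± 0.201 times HK2. PGAM2 and GAPDHS, forms of muscle and sperm, had no count. Among 14 glucose transporters, SLC2A1 (GLUT1) lay at 305 ± 10.8 TPM (286 to 324), or 13.0 ± 0.728 times the next, SLC2A8, and SLC2A2 and SLC2A7 had no count. All 7 pentose phosphate enzymes were expressed, led by TKT (transketolase) at 468 ± 27.9 and TALDO1 at 281 TPM. Of 7 gluconeogenic genes, PCK1 and G6PC, the forms of liver, had no count, while G6PC3, PC and PCK2 lay at 27.8, 14.8 and 13.7 TPM.

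All 23 genes of pyruvate dehydrogenase and the citric acid cycle were expressed at 10 TPM or more, with a list median of 167 TPM. MDH2, SDHC and DLD led with 423, 406 and 355 TPM. Fatty acid synthesis was uneven. FASN lay at 1010 ± 52.7 TPM, SREBF1 (its regulator SREBP1) at 385, SCD (the desaturase that makes oleate) at 383 ± 19.4, ACLY at 265 ± 9.41 and ELOVL1 at 209 TPM. ACACA, the carboxylase that supplies malonyl-CoA to FASN, lay at only 14.5 ± 0.747 TPM, and FASN was 69.6 ± 3.46 times ACACA. The desaturases of polyunsaturated fats were nearly silent, FADS2 at 0.277 and FADS1 at 0.162 TPM. All 23 cholesterol synthesis genes were expressed, with FDPS at 256 and SQLE at 159 TPM among the highest, with a list median of 51.2 TPM. For oxidation of fat, ACADVL (very long chains) stood at 328 ± 13.3 TPM, but ACADS (short chains) lay at 0.0252 TPM and PPARGC1A, a coactivator of mitochondrial genes, at 0.0143 TPM.

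Of 12 amino acid transporters, SLC3A2 and SLC7A5, the pair that forms the LAT1 exchanger of leucine, lay at 650 ± 25.6 and 230 ± 15.4 TPM (SLC7A5 shares reads), followed by SLC1A5, a glutamine carrier, at 186 TPM. SLC7A11, the cystine carrier, was low at 2.05 TPM. GLUL (glutamine synthetase) and ASS1 (argininosuccinate synthase) led the 20 serine, one-carbon and amino acid enzymes, at 227 ± 9.12 and 224 ± 10.0 TPM, with overlapping ranges, and 19 of the 20 were expressed.

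Proliferation genes were all present: 22 of 22 G2/M genes were expressed at 10 TPM or more, with TOP2A (topoisomerase II alpha) at 323 ± 9.88, CDK1 at 307 ± 27.4 and UBE2C at 247 ± 12.2 TPM. All 15 genes of the unfolded protein response were expressed at 10 TPM or more, led by the chaperones HSP90B1 at 532 and CALR at 424 TPM, and all 17 ATF4 targets were expressed, 12 of them at 10 TPM or more, led by ATF4 itself at 212 ± 6.37 and DDIT4 at 197 TPM. Of 21 immediate-early genes, 17 were expressed, with IER3 at 86.9 and MYC at 83.2 ± 4.94 TPM highest, and FOS at 1.79 TPM. Among growth control genes, CCND1 (cyclin D1) lay at 86.1 ± 5.32 TPM, in the range of MYC, and CDKN1B at 42.2 TPM.

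Antigen presentation was lopsided. B2M, the light chain of MHC class I, lay at 2470 ± 177.6 TPM, and HLA-E, a non-classical heavy chain, at 109 ± 5.21 TPM, but the classical heavy chains HLA-B and HLA-C lay at 2.27 ± 0.644 and 3.10 ± 0.744 TPM. B2M was 22.6 ± 2.16 times HLA-E. These heavy chains are highly variable between people and were counted against 1 reference sequence, so their levels are uncertain. HLA-G had no count, and of 13 MHC class II genes only HLA-DMA, at 5.77 TPM, was expressed. Of 24 interferon-stimulated genes, 13 were expressed, against 54.6% of all nuclear coding genes, with IFITM2 and IFITM3 at 64.4 and 49.7 TPM. All 17 type I interferon genes were below 0.1 TPM, 16 of them with no count.

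Large tissue-restricted families were silent. Of 381 olfactory receptor genes, 303 had 0 counts in all 8 libraries and 1, OR2A7, was expressed, at 3.41 ± 0.919 TPM. Of 94 keratin-associated proteins, which build hair, 77 had no count, and KRTAP3-1 at 1.94 TPM was the only member expressed. Gene segments of immunoglobulins and T cell receptors had no count in 194 of 198 and 183 of 186. Of 41 defensins, 36 had no count. Over all nuclear coding genes, 16.5% had no count, against 79.5% of olfactory receptors and 81.9% of keratin-associated proteins.

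Other families were silent but for a few members. Of the homeobox clusters, which set position along the body axis, HOXA, HOXB and HOXD had no expressed gene among 11, 10 and 9 members, with no count in 7, 9 and 7. HOXC had 6 of 9 expressed and none without a count: HOXC13 at 40.5 ± 2.05 TPM (shared reads), HOXC10 at 14.9, HOXC11 at 7.57 and HOXC6 at 5.68 TPM. Of 46 cancer-testis genes, which are normally restricted to germ cells, 12 were expressed, with CTAG2 at 219 ± 10.9, MAGEA3 at 141 ± 4.81 and MAGEA6 at 120 ± 5.32 TPM. These copies on the X chromosome are near-identical and share reads, so the split between members is uncertain. PSG4, a pregnancy-specific glycoprotein, lay at 21.7 ± 1.85 TPM, while 8 of 10 members of that family were not expressed.

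Among 55 keratins, 17 were expressed and 10 had no count. After the simple keratins came KRT81, a hair keratin, at 332 ± 21.6 TPM (shared reads) and KRT4, a keratin of squamous mucosa, at 184 ± 8.93 TPM. S100 proteins were a broad family here, with 15 of 21 expressed and 10 at 100 TPM or more. After S100A6 came S100A4 at 3011 ± 109, S100A9 at 2417 ± 165 and S100A11 at 1453 TPM. S100A9 was 2.91 to 3.75 times S100A8, its partner in calprotectin. Of 19 WNT ligands, WNT7B at 32.8 ± 1.40 and WNT5A at 16.5 TPM were highest, of 35 cytochromes P450 of families 1 to 4, CYP1B1 at 48.1 ± 2.18 TPM, and of 40 CC and CXC chemokines, CCL2 at 31.6 ± 4.15 TPM, with CXCL16 the only other expressed.

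The 8 libraries resembled each other closely. Across genes of at least 10 CPM, the Pearson correlation of log2 CPM between pairs of libraries ran from 0.990 to 0.996 over 28 pairs, as a description across genes. A chi-square test of counts gave 1.72 to 7.42 for each degree of freedom, above the value near 1 that sampling alone gives, so every pair differed beyond counting error. The common biological coefficient of variation (BCV), the spread beyond counting error that edgeR estimates over 12251 genes, was 5.32%. Despite its name, it may hold technical as well as culture differences. For the 9277 genes of at least 10 CPM, the median coefficient of variation (CV) of TMM-scaled CPM was 6.23%, with quartiles of 4.57% and 8.37%, beside a median counting error of 4.56%. Only 51 genes (0.550%) exceeded a CV of 20%. From 10 to 30 CPM the median CV was 8.40% against a counting error of 7.29%, and from 300 to 1000 CPM it was 4.35% against 1.53%. The spread of low genes thus lay close to the counting error and that of high genes well above it.

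Lists differed in spread. The 85 ribosomal protein genes of at least 10 CPM had a median BCV of 6.00% and the 13 mitochondrial mRNAs 7.30%, against 4.81% for all such genes. The 5 MHC class I genes of that level had 6.13% and the 6 basal markers 5.75%. Cholesterol synthesis genes had 4.44%, enzymes of serine, one-carbon and amino acid metabolism 4.43% and fatty acid synthesis genes 4.53%. These lists differ in level, and over all genes the median BCV was 5.27% from 10 to 30 CPM, 4.56% from 100 to 300 CPM and 5.32% at 1000 CPM or more. Of the 87 ribosomal protein genes, 55 share reads, which can add to their spread. Ribosomal protein genes deviated together, with a median log2 deviation from the mean of -0.13 in replicate 2, -0.12 in replicate 4 and 0.09 in replicate 8. The mitochondrial mRNAs were lowest in replicate 6, at -0.19, and highest in replicate 1, at 0.14. ERBB2 itself lay at 4182 CPM with an SD of 146.4, both without TMM scaling.

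Among genes with whole counts in most libraries, FAM220A, listed under ENSG00000286075, had the largest tagwise BCV, 74.0%. This entry has no coordinates or class in the gene annotation used. The TMM-scaled CPM of FAM220A was 4.01 and 3.43 in replicates 1 and 5 and between 26.1 and 33.0 in the other 6, with nothing between. Its mean count was 235.951, so its counts were not whole in every library, and some reads may be split with another entry. Whether such splitting gave the low values in replicates 1 and 5 was not tested. SCGB2A2, which encodes mammaglobin, a secreted protein of breast epithelium, came next with a BCV of 30.5%, from 30.9 CPM in replicate 4 over a median of 53.3 to 76.6 CPM in replicate 5. It was low in replicates 2 and 4, as were AGR2, a secretory pathway protein (96.8 and 98.8 CPM against 121 to 165 in the others), and CGA, the alpha chain of gonadotropins (14.2 and 11.3 CPM against 17.4 to 24.9). The mucin MUC16 and the nuclear RNA MALAT1 were lowest in replicate 8, at 52.1 and 1447 CPM, and reached 101 CPM in replicate 2 and 2622 CPM in replicate 7. SAMD9, S100A7, KCNQ1OT1, PTBP2, EIF3E, HNMT, AZGP1, METTL18 and SEC61G completed the 15 with a BCV between 13.3% and 17.4%. PTBP2 rested on replicate 4: without it the CV fell from 20.2% to 10.5%. Its value there was 6.84 CPM, against 11.3 to 15.3 CPM in the others.

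The steadiest genes with whole counts were FGD5-AS1 with a CV of 1.08%, PTTG1IP with 1.23%, ICMT with 1.25%, DMXL1 with 1.27% and DHRS2 with 1.29%. ZNF664, FKBP4, WDR76, GOLM1 and ACLY followed with up to 1.47%. For all of them but DHRS2 and ACLY the CV lay below the counting error, and they were picked for the smallest of 6799 values. Leaving out replicate 5 lowered the CV of DMXL1 to 0.683%, and leaving out replicate 6 that of ZNF664 to 0.896%. DHRS2 lay between 2839 and 2947 CPM in all 8 libraries.

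**Figure D5:**
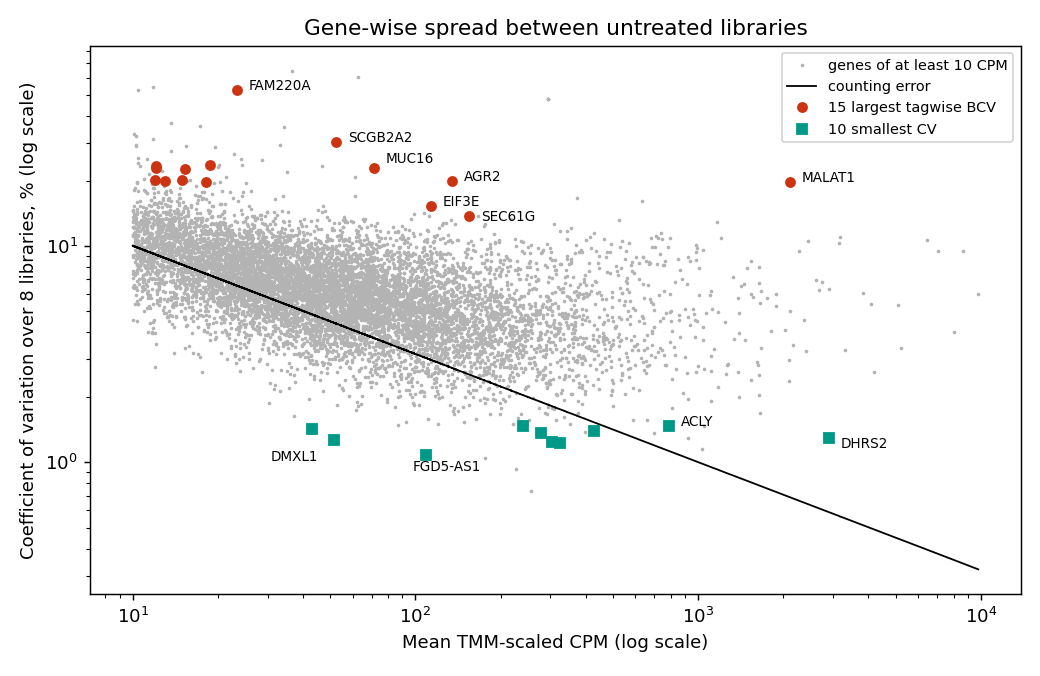
Coefficient of variation over the 8 untreated libraries (log axis) against mean TMM-scaled CPM (log axis), 1 grey point for each gene of at least 10 CPM, with the counting error as a black line. The 15 genes of largest tagwise BCV among those with whole counts in most libraries (red) include FAM220A at 52.8% and MALAT1 at 19.8%, and the 10 of smallest CV (green) lie near 1%.

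The widest axis of difference between libraries was the first principal component of log2 CPM, which held 32.6% of the variance and set replicates 2 and 4 (scores 10.0 and 7.31) apart from replicate 8 (-8.29) and replicate 3 (-4.50). Its gene loadings ran with the GC content of the longest transcript, with a Spearman rho of 0.564 over 9268 genes that are not independent, and less with transcript length (0.192). Deviations of replicates 2 and 4 alone correlated with GC at 0.479 and 0.382, and that of replicate 8 at -0.453. The strongest loadings were those of ENSG00000280614, ENSG00000280800 and ENSG00000281181, long non-coding RNA entries with identical values. They were at 498, 474 and 403 CPM in replicates 1, 2 and 5 and between 124 and 221 CPM in the other 5. Also among the strongest were RN7SL2 and RN7SL1, the non-coding RNAs of the signal recognition particle. RN7SL2 was at 133, 86.8 and 94.9 CPM in replicates 1, 2 and 5 and between 26.4 and 45.4 CPM in the other 5. RN7SL1 was at 87.4, 50.2 and 42.7 CPM in those replicates and between 17.9 and 29.4 CPM in the others. Its CV, 64.4%, was the largest among genes of at least 10 CPM. All these RNAs were among the low values in replicate 4, although its score was high, so they followed the axis only in part. Ribosomal protein genes were low in replicates 2 and 4 and highest in replicate 8. SCGB2A2, AGR2 and CGA had strong loadings of the opposite sign and were lowest in replicates 2 and 4. SCGB2A2 and CGA also followed the axis only in part. SCGB2A2 was highest in replicate 5, at 76.6 CPM with a score of 0.207, and CGA stood at 17.4 CPM in replicate 8. The part of GC content or of RN7SL levels in the spread of all these genes was not tested.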

How the data were processed

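PolyA RNA of 8 untreated SKBR3 cultures was sequenced as stranded paired-end libraries, per the labels' protocols. The deposited table holds RSEM expected counts for 60617 genes, with a length and an effective length in bases for each gene; the submitters' processing notes name FastQC 3.2, STAR 2.5.05, RSEM and GRCh38.p12. The labels state neither the strand setting of the counting nor the library behind each effective length. Of the count columns, the 8 control columns alone were used. TPM was computed as the count over effective length, scaled to 1000000; genes of effective length 0 (2887 genes, 3.77e-04% of counts) were left out. CPM used library totals. Gene classes and coordinates came from GENCODE v29 (GRCh38) and promoters from RefSeq (GRCh38.p14). For the spread, expected counts were rounded to whole numbers and fitted with edgeR 4.0.16 in R 4.3.3 (limma 3.58.1) with TMM factors of 0.987 to 1.02 and filterByExpr. CVs were computed for genes of at least 10 CPM. The text names the 15 highest genes by TPM, the 10 by CPM, the 6 highest members of a list, the 15 genes of largest BCV and the 10 of smallest CV, beside known markers. The 33 gene lists, the 30 families and their members were chosen with earlier results of these data known. No test between groups was made. The spread script was tested on simulated data. Values at 0 allow up to 3 counts of 79858674, counting error only. Alternatives were other length, scaling and filter choices and leaving out each library in turn. A few list members are not reported here.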

Additional observations from a re-analysis of the deposited data

Results flagged for a closer look

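Of 197 sets of 8 values examined, 4 had 1 library far from the other 7, by a gap to its neighbour larger than Dixon's critical value for 8 samples; chance alone gives such a gap in about 1 in 20 sets. ASS1, argininosuccinate synthase, stood at 245.9 TPM in replicate 4, against 216.7 to 227.8 TPM in the others. TPI1, triosephosphate isomerase, stood at 1081 TPM in replicate 5, against 925.2 to 992.9 TPM. IFITM3, an interferon-induced membrane protein, stood at 66.6 TPM in replicate 8, against 43.1 to 53.3 TPM. CXCL16, a chemokine, stood at 3.18 TPM in replicate 1, below the 4.22 to 4.86 TPM of the others.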

How the results depend on the processing

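The TPM of ERBB2 depends on what is in the total and on the length used: it was 1835 with gene length in place of effective length, 1578 without mitochondrially encoded genes and 1638 over nuclear coding genes alone, against 1463. The share of the 100 most abundant genes was 19.8% of counts, 32.9% without mitochondrially encoded genes and, in an alternative added after seeing the data, 34.9% without genes of effective length under 100 bases. The common biological coefficient of variation was 4.82% over genes with whole counts and 4.29% without replicates 2 and 4, the latter added after seeing the data. The median gene-wise coefficient of variation was 6.66% at 5 CPM or more, 4.96% at 50 CPM or more and 5.44% without replicates 2 and 4. Gene length in place of effective length changed the TPM of named genes by 0.208 to 1.33 times, with a median of 1.17. Leaving out each library in turn gave 12141 to 12167 expressed genes, 1448 to 1478 TPM for ERBB2, 35.5% to 35.8% for the share, 4.91% to 5.56% for the BCV and 5.99% to 6.33% for the median CV. The number of expressed genes was 13125 at 0.5 TPM, 13606 by mean TPM and 12289 by 10 counts. Olfactory receptors under 0.1 TPM numbered 372, against 303 without a count. No paired analysis was possible because a single group was described. Depth limits genes of few counts, such as PGR, CDH1 and ERBB4.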
